A study of Mus musculus with 4 samples.

Results

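De novo lipogenesis genes were examined in gonadal white adipose tissue (gWAT) of female mice on a high-fat diet (HFD). The 10 genes were chosen by symbol for their place in the pathway that makes fatty acids from carbohydrate carbon, and all 10 were found among the 17335 genes listed. They encode ATP citrate lyase (Acly), the acetyl-CoA carboxylases (Acaca and Acacb), fatty acid synthase (Fasn), stearoyl-CoA desaturases (Scd1 and Scd2), a fatty acid elongase (Elovl6), malic enzyme (Me1) and the transcription factors ChREBP (Mlxipl) and SREBP-1 (Srebf1). Both groups carried floxed Dnmt1 alleles, and both were fed HFD, with 60% of calories from fat, for 18 weeks. The fl/fl mice kept Dnmt1, which encodes the maintenance DNA methyltransferase. The AD1KO mice were littermates that had lost Dnmt1 through Cre driven by the adiponectin promoter, which is active mainly in mature adipocytes. The ages of the mice are not given in the sources used here. Equal amounts of RNA from 4 animals were pooled in each group, so there was 1 library per group and no measure of the spread between animals.

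De novo lipogenesis starts when citrate leaves the mitochondrion and is split to cytosolic acetyl-CoA. Acetyl-CoA is carboxylated to malonyl-CoA, and fatty acid synthase uses malonyl-CoA and NADPH to build palmitate. Elongation and desaturation then turn palmitate into stearate and into palmitoleate and oleate. In adipocytes the enzymes are transcribed under ChREBP, which responds to glucose metabolites, and under SREBP-1, which responds to insulin, and obesity is known to lower the pathway in white fat.

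Levels are in FPKM (fragments divided by transcript length and by library size), a scale on which genes can be compared with one another because length is divided out. Reads were estimated from the FPKM values and came to 17733069 in fl/fl and 17530825 in AD1KO. To form each log2 ratio, 0.01 was added to both FPKM values and AD1KO was divided by fl/fl. A ratio of at least 0.5 in either direction, the threshold of the study's methods, counted as higher or lower. The 95% intervals are exact Clopper-Pearson intervals on estimated reads and cover counting error only. Each ratio compares 2 libraries and has no replicate check. Dnmt1 itself had 6.99 FPKM in fl/fl against 3.33 in AD1KO (log2 ratio -1.07, interval -1.28 to -0.87), which places the lower level in the library labelled AD1KO. Its value covers the whole gene and all cells of the tissue, so neither the floxed exons nor the adipocytes can be told apart in it. Of 12 macrophage markers, 10 were lower too (median log2 ratio -0.92), and the part of such cells in the Dnmt1 value was not tested. Esr1, the estrogen receptor gene at which the study looked for methylation, had 4.82 against 8.44 FPKM (log2 ratio 0.81). All 14 adipocyte markers were detected in both libraries, with Fabp4, a fatty acid binding protein, the most abundant at 11151 and 15920 FPKM.

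The genes spanned a wide range of levels, and Scd1 made up most of the total. Summed over the 10 genes, there were 2218 FPKM in fl/fl against 3177 in AD1KO (log2 ratio 0.52). Scd1 held 80.1% of that sum in fl/fl and 79.9% in AD1KO. The other 9 genes summed to 440 and 639 FPKM, a log2 ratio of 0.54, so the higher total did not come from Scd1 alone. Among those 9, the share of Fasn went from 19.1% to 27.5% and the share of Me1 from 42.4% to 33.9%. The 10 genes took 1.06% of all estimated reads in fl/fl and 1.55% in AD1KO.

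**Figure D1:**
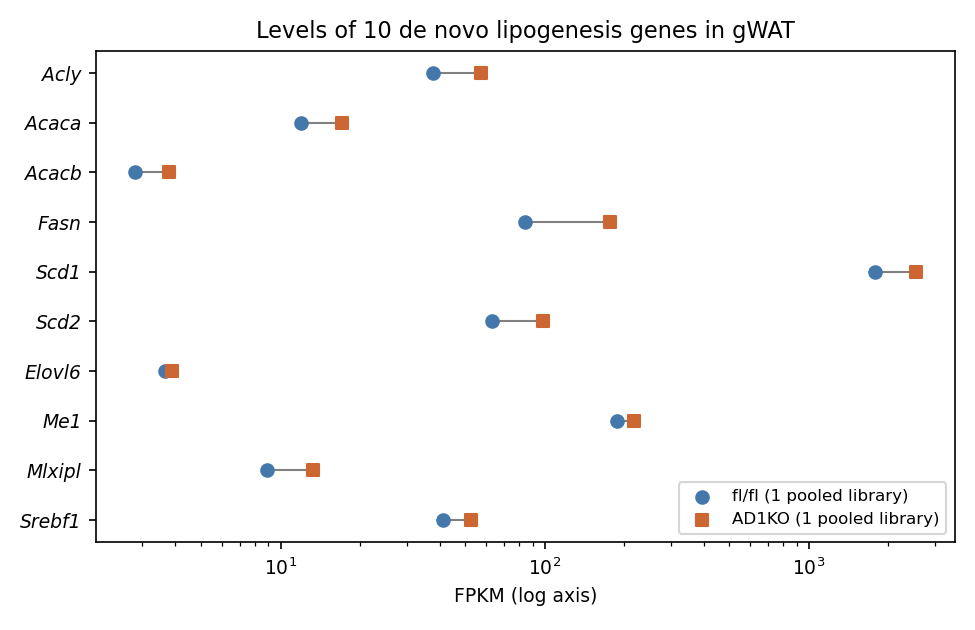
FPKM on a log axis for each of the 10 genes in the fl/fl library (circles) and the AD1KO library (squares), 1 pooled library per group and no error bars. Scd1 is highest at 1778 and 2538 FPKM, Acacb and Elovl6 are lowest at under 4 FPKM, and each square lies to the right of its circle on the deposited scale.

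By level, the order in fl/fl was Scd1, Me1, Fasn, Scd2, Srebf1, Acly, Acaca, Mlxipl, Elovl6 and Acacb. In AD1KO Acly passed Srebf1, with the rest of the order as in fl/fl. Scd1 ranked 33 among all listed genes in fl/fl and 20 in AD1KO. Me1 ranked 473 and 417, and Fasn moved from rank 1053 to rank 488. Acacb and Elovl6 were the lowest pair, at ranks 9989 and 9256 in fl/fl. With 1 library per group, no neighbours in this order can be called different beyond the spread between animals.

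On the deposited scale all 10 genes had a log2 ratio above 0 in AD1KO, and 6 of the 10 passed 0.5, while 6 of the 10 fell below 0, and 4 lay above it, when both libraries were scaled to adipocyte markers. On the deposited scale, ratios above 0 were found in 45.3% of the 15839 genes that reached 0.1 FPKM in at least 1 library, and 14.3% of them were higher by at least 0.5. On the marker scale, 12.9% of the 15839 genes had a ratio above 0. The values that follow are again on the deposited scale. Among genes with at least 1 FPKM, which all 10 reach, 10.1% were higher. None of the 10 was lower, against 19.1% of all tested genes and 16.3% of those with at least 1 FPKM. The median log2 ratio of the 10 was 0.51, beside -0.04 for all tested genes. The counting interval lay above 0 for 9 genes, with Elovl6 the exception. The share of all tested genes with such an interval was not computed, so this count has no background. The interval lay wholly past 0.5 for 4 genes (Fasn, Scd2, Acly and Scd1), against 4.18% of all tested genes. It lay wholly past -0.5 for none, against 8.30%. The counting intervals were apart in 27 of the 45 pairs of genes, 9 of them pairs with Fasn, so the genes differed among themselves by more than counting error. Pairs of other genes were not counted for comparison.

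**Figure D2:**
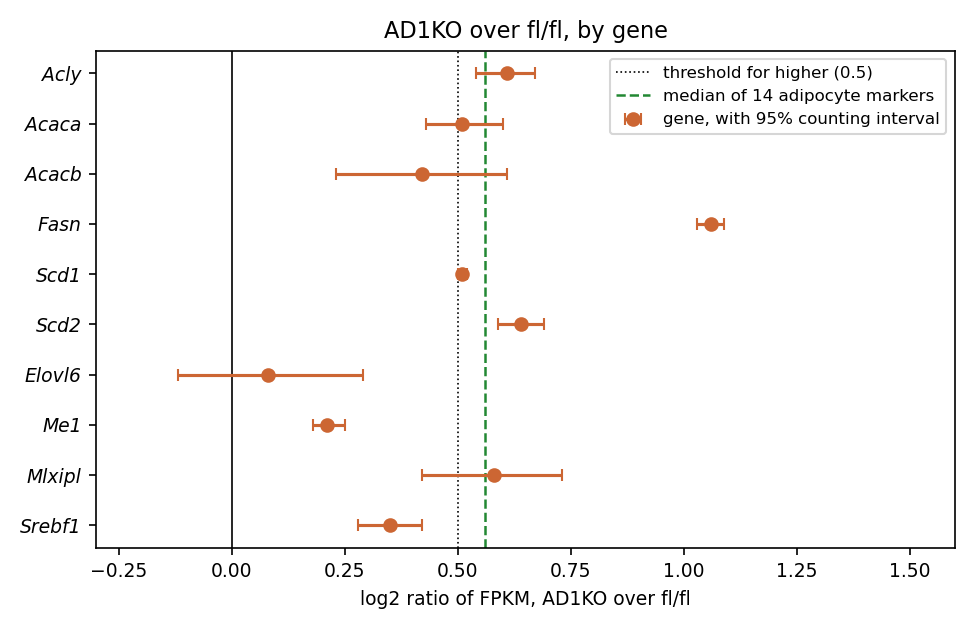
Log2 ratio of FPKM in AD1KO over fl/fl for each gene, with 95% counting intervals (bars) that leave out the spread between animals. The dotted line marks 0.5 and the dashed line the median of 14 adipocyte markers, 0.56. Fasn stands apart at 1.06, most genes lie between 0.35 and 0.64, and Me1 and Elovl6 lie at 0.21 and 0.08.

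Fasn encodes the multifunctional enzyme that assembles palmitate. The gene with ID 14104 lies on the minus strand of chromosome 11 between 120667254 and 120685492 (mm9, as are all gene positions given here). Its level was 84.1 FPKM in fl/fl against 176 in AD1KO, or about 14516 against 30031 reads. This is 2.09-fold higher, with a log2 ratio of 1.06 and an interval of 1.03 to 1.09. Of all tested genes, 5.13% had a larger ratio. Fasn was the one gene of the 10 with a ratio past 1, against 5.75% of all tested genes, none of the 10 lay past -1, against 8.95%, and its interval was apart from that of each of the other 9.

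The enzymes upstream of Fasn differed less. Acly, which splits cytosolic citrate (ID 104112, minus strand of chromosome 11, 100337667 to 100389314), had 37.8 FPKM in fl/fl against 57.5 in AD1KO, with a log2 ratio of 0.61 (interval 0.54 to 0.67). Acaca encodes the cytosolic carboxylase that feeds fatty acid synthesis (ID 107476, plus strand of chromosome 11, 83943174 to 84215153). Its levels were 12 and 17.1 FPKM, a log2 ratio of 0.51 whose interval, 0.43 to 0.60, crosses the threshold. Acacb encodes the carboxylase at the mitochondrial outer membrane, whose malonyl-CoA restrains fatty acid entry for oxidation (ID 100705, plus strand of chromosome 5, 114596544 to 114700770). It had only 2.82 and 3.77 FPKM, about 417 and 552 reads, and its log2 ratio of 0.42 (interval 0.23 to 0.61) fell short of 0.5. The intervals of Acaca and Acacb overlap, so their ratios could not be told apart with these reads. Within each library Acaca exceeded Acacb, by 4.24-fold in fl/fl and 4.53-fold in AD1KO. On the log2 scale this is a change of 0.10 (interval -0.11 to 0.30, by a normal approximation that was used for all within-library ratios).

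The desaturases were both higher in AD1KO on the deposited scale, with Scd1 below 0 on the adipocyte marker scale. Scd1, the main stearoyl-CoA desaturase of adipocytes (ID 20249, minus strand of chromosome 19, 44468941 to 44482199), had 1778 FPKM in fl/fl against 2538 in AD1KO. About 147784 and 208991 reads gave it the narrowest interval of the 10, from 0.50 to 0.52 around a log2 ratio of 0.51. Scd2, the isoform better known from brain and from lipid synthesis in early life (ID 20250, plus strand of chromosome 19, 44368166 to 44381354), had 63.4 against 98.8 FPKM, a log2 ratio of 0.64 (interval 0.59 to 0.69). Scd1 exceeded Scd2 by 28.1-fold in fl/fl and by 25.7-fold in AD1KO, a log2 change of -0.13 (interval -0.18 to -0.08). In the mm9 transcripts 4.66% of the stretches of 50 bases in Scd1, and 3.79% of those in Scd2, also occur in another desaturase gene of the family, so a small part of their reads may be shared. The other Scd genes had few reads. Scd3 had about 1 and 6 reads and Scd4 about 6 and 4.

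Elovl6, which elongates palmitate to stearate (ID 170439, plus strand of chromosome 3, 129235304 to 129341413), had 3.65 FPKM in fl/fl against 3.87 in AD1KO. The log2 ratio was 0.08 with an interval of -0.12 to 0.29, and no difference could be detected with about 374 and 393 reads. The interval ends below those of Fasn, Scd1, Scd2, Acly, Acaca and Mlxipl. The ratio of Scd1 to Elovl6 was 487 in fl/fl against 656 in AD1KO, a log2 change of 0.43 (interval 0.23 to 0.63). Against Fasn, Scd1 went the other way, from 21.1-fold above it to 14.5-fold above it, a log2 change of -0.55 (interval -0.58 to -0.52).

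Me1 encodes the cytosolic malic enzyme, which makes NADPH while turning malate to pyruvate (ID 17436, minus strand of chromosome 9, 86474970 to 86589947). It had 187 FPKM in fl/fl against 217 in AD1KO, or about 10317 against 11846 reads. The log2 ratio, 0.21 (interval 0.18 to 0.25), was above 0 on the deposited scale, below 0.5, and -0.35 on the adipocyte marker scale. An unnamed transcript of 1638 bases that the authors' table annotates as NADP-dependent malic enzyme is listed at 0 in fl/fl and at 15.9 FPKM in AD1KO, about 423 reads. A further unnamed transcript with that annotation was at 3.65 and 3.23 FPKM. Summed over the 3 entries, the reads were about 10346 in fl/fl against 12294 in AD1KO, with a log2 ratio of 0.26 (interval 0.23 to 0.30), which stayed below 0.5. Whether these transcripts share reads with Me1 was not tested, so the value of Me1 alone is uncertain by an unknown amount.

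The transcription factors of the pathway differed by less than Fasn. Mlxipl (ID 58805, plus strand of chromosome 5, 135582761 to 135614254) had 8.92 FPKM in fl/fl against 13.3 in AD1KO, a log2 ratio of 0.58 (interval 0.42 to 0.73). Srebf1 (ID 20787, minus strand of chromosome 11, 60012591 to 60036083) had 41.1 against 52.4 FPKM, a log2 ratio of 0.35 (interval 0.28 to 0.42), short of the threshold. Srebf1 exceeded Mlxipl by 4.61-fold in fl/fl and 3.94-fold in AD1KO, a log2 change of -0.23 (interval -0.39 to -0.06). The table gives 1 value per gene, so the alpha and beta forms of ChREBP and the a and c forms of SREBP-1 are not told apart. In the mm9 annotation 1.93% of the exon bases of Srebf1 overlap Rai1 on the opposite strand. The sources used here do not say whether the libraries kept strand.

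The partners and regulators of these factors were mixed. Among 22 regulators, 3 were higher and 2 lower, with a median log2 ratio of 0.01. Over all tested genes 14.3% were higher and 19.1% lower, so the count of higher regulators was near the share of all genes. The lower regulators were Srebf2 and Usf2. Srebf2, which drives cholesterol synthesis, was at 11.1 and 7.60 FPKM (log2 ratio -0.54). Mlxip, the paralog of ChREBP, was at 5.29 and 4.14 FPKM (log2 ratio -0.35), and Mlx, the partner that both need to bind DNA, was at 21.2 and 17.2 FPKM (log2 ratio -0.30). Usf2 and Usf1, which bind E-boxes of lipogenic promoters, had ratios of -0.52 and -0.40. The values of Mlxip, Mlx and Usf1 did not pass the threshold. Thrsp, a lipogenic protein of adipocytes and liver, was the most changed regulator, at 86.6 and 273 FPKM, a log2 ratio of 1.66 (interval 1.57 to 1.74), above that of Fasn. Insig1, which retains SREBP precursors and is itself an SREBP target, was at 75.3 and 146 FPKM (log2 ratio 0.95, interval 0.89 to 1.01). Prkaa2, an AMPK catalytic subunit, was the remaining higher gene (0.57), at no more than 1.06 FPKM. Scap, Insig2 and Nr1h3, which encodes LXR alpha, had ratios of 0.13, 0.14 and 0.18.

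Promoter sequences were read for the genes to show the elements through which ChREBP, SREBP-1 and their co-factors are known to act. RefSeq start sites (GRCm38.p6) gave 12 promoters of 300 bases for 8 of the 10 genes, with Scd1 and Scd2 not matched. Each runs from 250 bases before to 50 bases after a start. The E-box CACGTG was found in 1 of the 12, and in 7.15% of all 32851 promoters. The sterol regulatory element TCACNCCAC was found in 1, and in 1.24% of all. The CCAAT box, the NF-Y element that often neighbours SREBP sites, was found in 7 of the 12 and in 37.4% of all, and the GC box GGGCGG in 5 and in 35.7%. Both strands were searched. The windows below, 30 bases in the direction of the gene with the motif in capitals, show the only E-box and sterol regulatory element, the CCAAT boxes of Fasn, the most changed gene, and the one nearest to a start of Srebf1.
Mlxipl E-box, chr5:135089780-135089809, plus strand: gcggctgccatcCACGTGctaaggagagaa
Mlxipl sterol regulatory element, chr5:135106745-135106774, plus strand: atcagtggttTCACACCACgctcactggtt
Fasn CCAAT box, read on the opposite strand, chr11:120824620-120824649, minus strand: ccgcgcgccgccATTGGgccaccgagaacg
Fasn CCAAT box, chr11:120824592-120824621, minus strand: cggcctcggtgtCCAATtggtttcgatgtg
Srebf1 CCAAT box, read on the opposite strand, chr11:60210484-60210513, minus strand: gcgcggctgctgATTGGccatgtgcgctca
The E-box of Mlxipl begins 98 bases before one of its starts and the sterol regulatory element 136 bases before the other. The CCAAT boxes of Fasn begin 90 and 62 bases before its start, and the second overlaps a further match on the opposite strand. A match is a description of the letters and shows no binding. The Fasn promoter holds 39 CpG dinucleotides, a number reached by 4.45% of all promoters, against a median of 7. The promoters with the next highest numbers belong to Srebf1 (36) and Me1 (35). DNA methylation was not measured in these libraries.

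Adipocyte markers were higher in AD1KO to much the same extent as the lipogenic genes, and immune markers were lower. Of 14 adipocyte markers, 10 were higher and none lower, with a median log2 ratio of 0.56 and a lowest ratio of 0.35. Their summed level was 19844 FPKM in fl/fl and 30394 in AD1KO. The ratios of 8 lipogenic genes lay within the range of the markers, and those of Me1 and Elovl6 lay below it. Fasn, at 1.06, lay within the range only because of Cfd, the marker with the highest ratio. The next highest marker, Cidec, was at 0.96, and both are named because of their values. The share of all tested genes within the marker range was not computed. Of 12 macrophage markers, 10 were lower (median -0.92). The exceptions, Lpl and Cd163, had ratios of 0.39 and 0.30, and Lpl, the most abundant of the 12 and also an adipocyte gene, holds 2436 of the summed 6482 FPKM in fl/fl and 3195 of 5185 in AD1KO. All 8 T and NK cell markers were lower (median -1.83), from a summed 99.3 to 27.3 FPKM. In pooled tissue RNA, more adipocyte RNA per cell and a larger share of adipocytes cannot be told apart. The part of tissue makeup in the ratios of the lipogenic genes was not tested.

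When both libraries were scaled to the median of the adipocyte markers, the lipogenic genes were spread around 0. Fasn kept a log2 ratio of 0.50, at the threshold. Scd2, Acly and Mlxipl had 0.08, 0.05 and 0.02, Acaca and Scd1 had -0.04 and -0.05, and Acacb, Srebf1, Me1 and Elovl6 had -0.14, -0.21, -0.35 and -0.47. On that scale 1 of the 10 was higher and none lower, against 5.25% and 59.7% of all tested genes, whose median was -0.60 there. The background on this scale was computed after the data were seen. By counting error alone, the intervals of Fasn and Scd2 lay above the marker median, and those of Scd1, Srebf1, Me1 and Elovl6 lay below it.

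**Figure D3:**
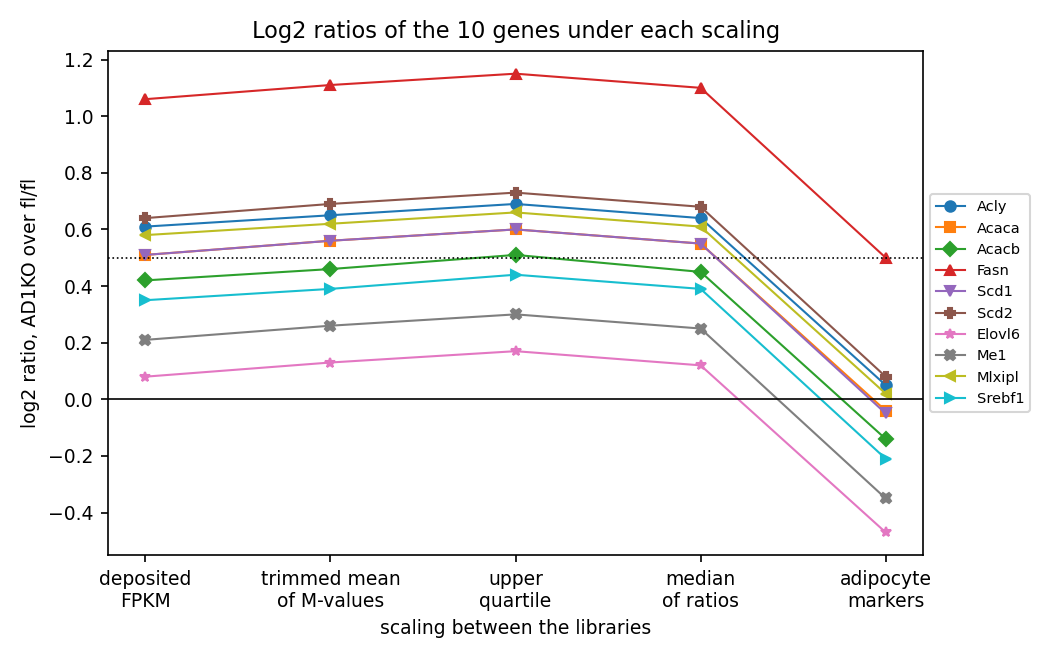
Log2 ratio of AD1KO over fl/fl for the 10 genes (lines join the values of 1 gene) on the deposited FPKM scale and under 4 other scalings between the libraries. Each scaling shifts all genes by 1 constant, so their order is kept by construction, and scaling to adipocyte markers moves 6 genes below 0, with Fasn at 0.50.

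Markers of other cells that make fatty acids were also read. All 6 hepatocyte markers were higher in AD1KO, with a median log2 ratio of 1.01 and summed levels of 71.9 and 150 FPKM. Alb, serum albumin, was at 40.0 and 89.5 FPKM (log2 ratio 1.16, interval 1.07 to 1.26), and its interval overlaps that of Fasn. Whether RNA of liver origin was present, and its part in the lipogenic values, was not tested. Of 8 mammary epithelial markers, 4 are in the table, each at 0.28 FPKM or less, and 2 of these are listed at 0 in AD1KO. Brown and beige adipocyte markers went both ways, 3 of 10 higher and 2 lower, with Cox8b the most abundant at 79.5 and 107 FPKM. The higher ones, Elovl3, Dio2 and Tbx1, named for their few reads, had at most 46 per library. The lower ones, Ucp1 and Cidea, had about 226 and 37 reads and about 108 and 62 reads. The intervals of Ucp1, Cidea, Elovl3 and Dio2 excluded 0, and that of Tbx1 did not. Ucp1, the uncoupling protein of brown fat, singled out once its values were known, had 8.39 and 1.38 FPKM. Schwann cell markers, read because Scd2 serves myelin, had a median of -0.03, with 2 of 7 higher and 1 lower. Of 8 reproductive tract epithelial markers 1 was higher and 3 lower. The lower ones, named because of their values, were Ovgp1 at 3.51 and 0.17 FPKM (about 149 and 7 reads), Wfdc2 at 3.64 and 0.39 FPKM (about 38 and 4 reads), and Pax8, which is listed at 0 in AD1KO and had 0.25 FPKM (about 11 reads) in fl/fl. The higher one was Krt19, the most abundant, at 21.1 and 35.8 FPKM. The part of such tissue in the lipogenic values was not tested. Stromal progenitor markers (1 of 7 higher, 1 lower), endothelial markers (1 of 5 higher, none lower) and B cell markers (none of 4 higher, 2 lower) had medians of 0.04, 0.34 and -0.44.

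The steps that supply carbon and NADPH differed less than Fasn. Of 26 supply genes, 5 were higher and 1 lower, with a median log2 ratio of 0.32, and 21 had a ratio above 0 on the deposited scale. The shares of all tested genes were 14.3% higher, 19.1% lower and 45.3% above 0. The largest ratios belonged to Acss2, which makes acetyl-CoA from acetate (38.2 and 70.5 FPKM, 0.88), to Slc2a4, the insulin-responsive glucose transporter (24.7 and 43.7 FPKM, 0.82), and to Pcx, pyruvate carboxylase (128 and 206 FPKM, 0.69). The mitochondrial citrate carrier Slc25a1, which exports the substrate of Acly and is named here because of its values, had 209 and 327 FPKM (0.65). The lowest ratios were those of Acss1 (-0.70), Pkm (-0.49) and Me2 (-0.27). Like Me1, the NADPH sources of the pentose phosphate pathway and cytosolic isocitrate dehydrogenase stayed below the threshold. G6pdx was at 0.34, Pgd at 0.36 and Idh1 at 0.19, values that were also read after the fact.

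Genes that process the products were mixed. Of all tested genes, 14.3% were higher and 19.1% lower. Among 20 other elongases, desaturases and elongation cycle genes in the table, 4 were higher and 1 lower (median 0.32). Apart from Fads3, the higher genes (Elovl2, Elovl3 and Scd3) and the lower Elovl4 had at most 38 estimated reads per library. They are named here for their few reads. Fads3 was at 184 and 286 FPKM (0.63), Hacd2 at 52.3 and 70.6 (0.43) and Elovl3 at 0.45 and 1.23, while Elovl1, Fads1 and Hacd3 had ratios of -0.31, -0.25 and -0.16. Among 19 genes of acyl-CoA synthesis and handling, 3 were higher and 2 lower (median 0.04). Apart from Dbi, the higher genes (Acsm5 and Acot4) and the lower ones (Acsm3 and Olah) had at most 73 reads per library. Dbi, the acyl-CoA binding protein, was at 3131 and 4652 FPKM (0.57), Acsl1 at 370 and 508 (0.46) and Acsm5 at 0.52 and 1.61, while Acsl5, Ppt1 and Acot1 had ratios of -0.48, -0.44 and -0.44.

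Neighbouring lipid pathways were compared by counts and medians, which are descriptions and not tests. The counts stand beside 14.3% higher and 19.1% lower over all tested genes. Of 12 triglyceride synthesis genes, 6 were higher and 1 lower (median 0.54), with Pck1 at 0.87, Mogat2 at 0.80 and Dgat2 at 0.78, and Lpin2 at -0.73 and Lpin3 at -0.01. Of 14 lipolysis and lipid droplet genes, 9 were higher and 1 lower (median 0.54), with Cidec at 0.96, Bscl2 at 0.65 and Plin5 at 0.64, and Cidea, Plin2 and Plin3 at -0.80, -0.44 and -0.17. Of 19 cholesterol synthesis genes, 5 were higher and 1 lower (median 0.33), with Nsdhl at 0.69, Acat2 at 0.64 and Sc5d at -0.04. The adipocyte markers share Plin1, Cidec and Lipe with the lipid droplet list and Slc2a4 with the supply list.

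**Figure D4:**
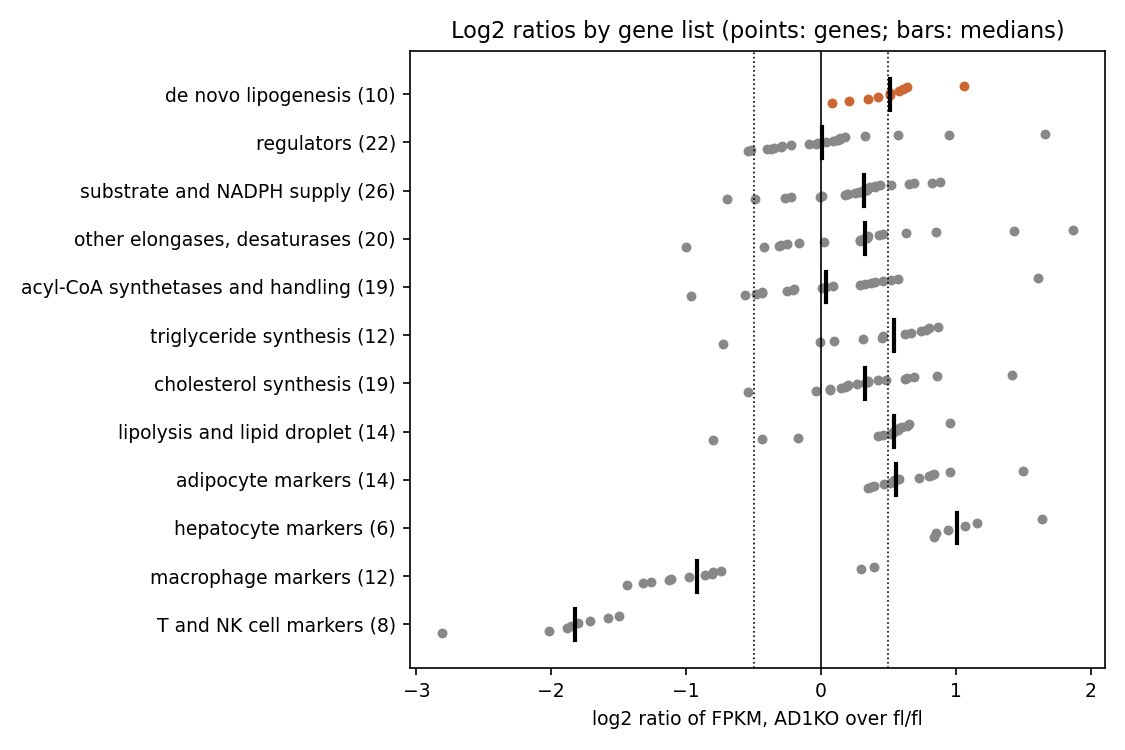
Log2 ratios of FPKM in AD1KO over fl/fl on the deposited scale, 1 point per gene that reached 0.1 FPKM, with the median of each list as a bar, the number of genes in brackets and dotted lines at 0.5 in both directions. The lipogenic genes (median 0.51) lie with the triglyceride, lipid droplet and adipocyte lists, and hepatocyte markers lie higher (median 1.01). T and NK cell markers lie below 0, as does the macrophage median, with Lpl and Cd163 above 0.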

How the data were processed

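RNA-seq was analysed in 1 pooled library of fl/fl and 1 of AD1KO gWAT, and the RRBS libraries were not used here. The authors deposited FPKM, with 0 written as 0.01, from clean reads aligned to mm9 per their methods (the labels list mm9 and mm10). The aligner and counter are not given in the sources used here. The deposited fold changes, P-values and FDR compare these libraries and were not used.

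Values of 0.01 were set back to 0, the pseudocount was 0.01 FPKM, and a gene was tested if either library reached 0.1 FPKM (15839 genes). Reads were estimated from the steps that 1 read makes in low values of short transcripts (under 700 bases, FPKM times kilobases under 1.4). With 115 bases taken off each length, the fitted depths were 17580000 and 17410000. At these depths, 73.2% of 250 values in fl/fl and 72.7% of 253 in AD1KO lay within 0.15 of a whole read. Without steps, 30% would do so at a depth fixed beforehand. The correction and the depths were fitted to these same values, so part of the excess over 30% may come from the fit. The steps were also run on data simulated with the same formula, which cannot show how the authors' FPKM were made. Without molecular identifiers, intervals cover counting error only.

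The 10 genes and all lists were chosen with earlier results of these data known. Named were the 10 genes, entries annotated as the same enzymes, Dnmt1, Esr1, 8 fixed regulators, up to 3 of the largest and 3 of the smallest ratios of each pathway list among genes with at least 1 FPKM, and the most abundant gene of a marker list; other names are marked where they occur or are exceptions to a count. Some genes that this rule names are not reported here. Alternatives were scaling by an unweighted trimmed mean of M-values (trims of 30% and 5%), upper quartile, median of ratios or adipocyte markers, pseudocounts of 0.1 and 1, other filters, a threshold of 1, and whole intervals past 0.5. Positions come from GENCODE (mm9), promoters from RefSeq (GRCm38.p6). Versions were 3.11.15 for Python, 2.4.6 for NumPy, 1.17.1 for SciPy, 2.3.3 for pandas and 3.10.9 for Matplotlib.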

Additional observations from a re-analysis of the deposited data

Results flagged for a closer look

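An unnamed transcript annotated as NADP-dependent malic enzyme lies outside the 10 genes and had a signal in 1 library alone. It was at 15.9 FPKM in AD1KO, about 423 reads, and is listed at 0 in fl/fl, which is at least 142-fold higher in AD1KO when fl/fl is set at the 3 reads that a count of 0 allows. That figure leaves out the counting error of the AD1KO reads, and the exact interval, which includes it, starts at a log2 ratio of 6.85. Over the same pair of libraries Me1 had a log2 ratio of 0.21. The sequence and position of the transcript were not analysed here.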

How the results depend on the processing

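No paired analysis was possible because each group is a single pool of RNA, and no replicate could be left out. The 10 genes kept ratios above 0 under each scaling and pseudocount other than scaling to adipocyte markers. Scaling to the markers moved the median from 0.51 to -0.05 and left 1 gene higher in place of 6. It turned 6 genes below 0, namely Acaca (-0.04), Scd1 (-0.05), Acacb (-0.14), Srebf1 (-0.21), Me1 (-0.35) and Elovl6 (-0.47). This follows from its construction, since it takes 0.56 from each ratio. A threshold of 1 also left 1 gene higher. Under the other settings, 4 (whole counting interval past 0.5) to 7 (upper quartile scaling) of the 10 were higher. The log2 changes of Acaca over Acacb (0.10), Scd1 over Scd2 (-0.13) and Srebf1 over Mlxipl (-0.23) had the same values on estimated reads without the length correction. That equality is fixed by construction, since length and depth cancel in such a change, so it is no check. Over all tested genes, 2265 were higher and 3029 lower. Upper quartile scaling turned that balance, with 2795 higher and 2609 lower, and scaling to adipocyte markers, run for all genes after seeing the data, gave 831 and 9448. The counts were 965 and 1661 with a pseudocount of 1 FPKM, 910 and 1417 at a threshold of 1, and 662 and 1314 for the whole interval, and 1281 were higher among genes with at least 1 FPKM. The last 4 settings shrink ratios of low genes or call fewer genes by construction. Depth limits Elovl6, Acacb and Mlxipl most, with the fewest reads (374 to 829 per library).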
